A study of Oryza sativa with 18 samples.

Results

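The genes described here are the autophagy and cysteine protease genes of rice (Oryza sativa), followed in flag leaves while the grain fills. They were chosen by the words of the deposited description column, with earlier results of these data known. A locus was taken if its description held "autophagy", "cysteine protease", "cysteine proteinase", "oryzain" or "papain" and not "inhibitor". The rule gave 62 of the 55986 loci. By description, 15 were autophagy genes, 31 were oryzains, papain family members and other cysteine proteases or proteinases (called papain-type below, from the description only), 14 were OTU-like cysteine proteases, and 2 were peptidases described as trypsin-like serine and cysteine proteases.

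Autophagy carries cell material to the vacuole in double-membrane vesicles. Work in yeast and Arabidopsis showed that the small ubiquitin-like protein ATG8 is trimmed by the cysteine protease ATG4 and attached to a membrane lipid by the conjugating enzyme ATG3, while ATG12 is joined to ATG5 with the help of ATG10, and the membrane protein ATG9 helps to supply the vesicle with lipid. Papain-type proteases are made as inactive precursors and mostly act in the vacuole or outside the cell, and in ageing leaves they help to break down protein, Rubisco included, so that nitrogen can move to the grain. The oryzains are papain-type enzymes first described from rice seed. OTU-like proteases belong to a family that removes ubiquitin from proteins.

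Flag leaves were taken from plants in a paddy field at 5DAF and 15DAF (read here as days after flowering) and their total RNA was sequenced. They came from wild-type plants (WT), from a mutant named Ospho1;2-Ko1 (Ko1) and from an overexpression line named OsPHO1;2-OE (OE), where OsPHO1;2 is a phosphate exporter gene. The 3 genotypes and 2 stages made 6 groups of 3 libraries, with 13223554 to 18264909 counts per library. The title of the series places the study in the control of flag leaf photosynthesis. The labels name 1 mutant line and 1 overexpression line and no cultivar, and they give neither the kind of mutation, nor the promoter behind the overexpression, nor the number of plants in a library. They do not say that replicates came from separate plants, so a p-value reflects the spread among these libraries alone, which may be technical.

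Libraries were checked before the members were read. The targeted gene OsPHO1;2 (LOC_Os02g56510) had 1.72, 3.52 and 2.25 CPM (counts scaled to the TMM library size) in WT at 5DAF and 3.38, 2.78 and 1.10 CPM in the libraries labelled Ko1, with overlap. At 15DAF it had 1.78 to 3.25 CPM in WT and, above all of these, 6.07 to 6.14 CPM in the libraries labelled Ko1. Those labelled OE had 4.75 to 29.5 CPM, and OE 15DAF replicate 2 (4.75 CPM) was below its 2 partners (17.995 and 29.5 CPM). Leaf mesophyll markers (Rubisco small chain and chlorophyll-binding proteins, 21 genes, none at 0 throughout) summed to 13400 to 52214 CPM, against 11.6 to 24.2 CPM for developing grain markers (43 genes, 18 at 0) and 43.9 to 101 CPM for pollen markers (39 genes, 14 at 0). WT 5DAF replicate 3 stood apart from its group, with a second principal component of -38.3 against 54.9 and 51.9 and leaf markers at 27711 CPM against 51818 and 48365. Ko1 15DAF replicate 2 had the highest leaf marker sum of its group (34593 CPM against 22076 and 13400). Calls that appear or are lost without either library are given beside the genes concerned.

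Of the 62 genes, 42 had enough counts to be tested, among 20437 genes tested in all, and 14 had no count in any library. The other 6 had totals of only 2 to 9 counts over the 18 libraries. All 14 OTU-like genes and both trypsin-like peptidases were tested. So were 14 of the 15 autophagy genes, the exception being LOC_Os02g32700, which was at 0. Only 12 of the 31 papain-type genes were tested, and 13 were at 0, among them a locus described as an oryzain alpha chain (LOC_Os01g11830) and 3 of the loci described as EP-B 1. The genes were spread over 12 chromosomes. Chromosome 4 held the most, 14, of which 11 were tested.

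Levels between genes were compared as deposited FPKM, which is scaled to gene length. The highest mean over the 18 libraries belonged to the oryzain gamma chain (LOC_Os09g27030), with 1087 FPKM, rank 32 among all genes. It was followed by a cysteine proteinase 1 (LOC_Os02g27030) with 940 FPKM, an oryzain alpha chain (LOC_Os04g55650) with 367 FPKM and a papain family protease (LOC_Os05g24550) with 166 FPKM. These 4 genes held 72.9% to 83.3% of the summed CPM of the members in a library, with a median of 77.1%. The fifth was an autophagy gene, LOC_Os07g32800, with 155 FPKM and rank 425.

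The other members were lower. The second autophagy gene, LOC_Os08g09240, reached 79.0 FPKM, and the highest OTU-like gene, LOC_Os04g33780 (named after its values were seen), reached 52.4 FPKM. The remaining autophagy genes had 2.09 to 33.5 FPKM. The oryzain beta chain (LOC_Os04g57440) had only 3.33 FPKM, far below the gamma chain and the main alpha chain. Low levels also marked the members that lie close to each other: LOC_Os01g42780 and LOC_Os01g42790, 6129 bases apart on chromosome 1, had 0.395 and 3.71 FPKM.

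**Figure D1:**
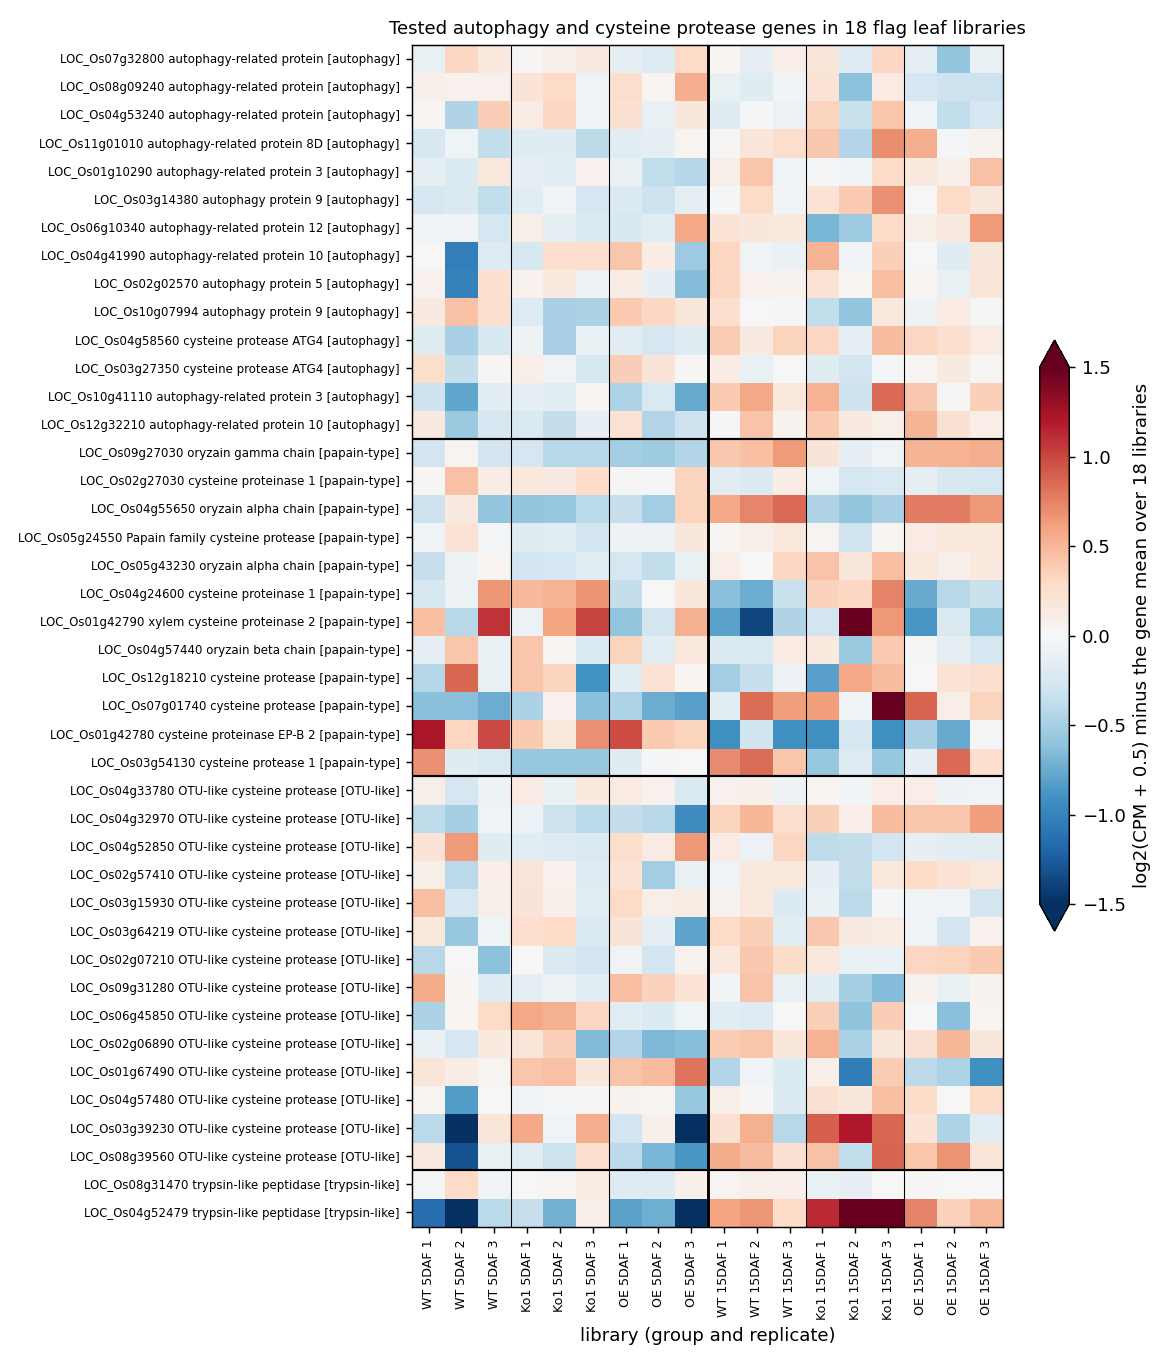
Heat map of the 42 tested genes (rows, grouped by class and ordered by FPKM) in the 18 libraries (columns). Colour shows log2(CPM + 0.5) minus the gene's mean over the 18 libraries, cut at ±1.5. The oryzain alpha chain LOC_Os04g55650 is red in WT and OE at 15DAF and not in Ko1, and the trypsin-like peptidase LOC_Os04g52479 is red at 15DAF in every genotype.

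Each comparison was tested with edgeR's quasi-likelihood test over all 20437 genes with Benjamini-Hochberg adjustment, and a gene was called at an adjusted p under 0.05. Between 5DAF and 15DAF in WT, 6 members were higher and 2 lower at 15DAF, 19.0% of the 42 tested, against 16.7% of all genes. Of the 2 lower, LOC_Os01g42780 passed the count filter only through 5DAF libraries, where it was high. The WT share is therefore not read as above that of all genes. In OE, 10 were higher and 3 lower, 31.0% against 26.7% of all genes. In Ko1, 5 were higher and none lower, 11.9% against 20.1% of all genes. Without Ko1 15DAF replicate 2, the Ko1 count was 8 higher and 1 lower (again LOC_Os01g42780), 21.4% of the members, with 20.1% of all genes. It was 2 (4.76%, against 13.1% of all genes) without Ko1 15DAF replicate 3 and 3 (7.14%, against 16.5%) without Ko1 5DAF replicate 3. In OE it was 6 (14.3%) without OE 5DAF replicate 3, OE 15DAF replicate 2 or OE 15DAF replicate 3, where all genes gave 21.8%, 20.4% and 18.9%. It was 7 (16.7%, against 20.9%) without OE 5DAF replicate 2, and 8 (19.0%) without replicate 1 of 5DAF or 15DAF, where all genes gave 20.8% and 20.6%. The OE share of members was thus above that of all genes with all 6 libraries and below it without any 1 of them.

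The median log2 change of the members between the stages was 0.20 in WT, 0.15 in Ko1 and 0.20 in OE, where the medians of all genes were -0.02, 0.00 and 0.02. Without WT 5DAF replicate 3, WT had 5 higher and none lower, 11.9% of the members, against 14.9% of all genes. It also had 5 called without WT 5DAF replicate 1, against 13.4% of all genes, or without any 1 of the WT 15DAF libraries, against 9.08% to 12.4%. LOC_Os04g52479, a trypsin-like peptidase, and LOC_Os04g32970, an OTU-like protease, were called higher at 15DAF in all 3 genotypes.

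Between genotypes, Ko1 against WT at 15DAF gave 3 members higher and 2 lower, 11.9% of the members, against 11.0% of all genes. Of the 2 lower, LOC_Os03g54130 passed the count filter only through WT and OE libraries, where it was high. The share is therefore not read as above that of all genes. The 5 calls became 1 (2.38%, against 3.88% of all genes) when WT 15DAF replicate 2 was left out, and 2 (4.76%) when replicate 1 or 3 of that group was, against 3.88% and 4.37%. They became 3 (7.14%) without Ko1 15DAF replicate 2 or 3, against 10.1% and 6.56%. At 5DAF no member was called in Ko1 against WT by edgeR, where 0.0147% of all genes were. DESeq2 called 1 member there, and 1 was higher and 3 were lower at an unadjusted p under 0.05. Without WT 5DAF replicate 3 that comparison gave 2 members higher and 3 lower, 11.9%, against 13.4% of all genes. LOC_Os03g54130 was again among the lower. Counts from DESeq2 or at an unadjusted p, here and below, have no share of all genes beside them. They are not read as a result about the members.

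No member was called in OE against WT by edgeR or DESeq2. All genes gave 0.0391% at 5DAF, 0.182% at 5DAF without WT 5DAF replicate 3, and 0.0245% at 15DAF. At an unadjusted p under 0.05, 1 member was lower in OE at 5DAF and none differed at 15DAF. No member passed for a change of the Ko1 effect between the stages, with 0.553% of all genes called, or for a change of the OE effect, with 0.0% called. DESeq2 called none in either. At an unadjusted p under 0.05, the change of the Ko1 effect had 1 member in each direction and the change of the OE effect had 1 lower.

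Ko1 was also set against OE, in comparisons chosen after the values were seen. At 5DAF, 2 members were lower in Ko1, 4.76%, against 16.3% of all genes. At 15DAF, 2 were higher and 2 lower, 9.52%, against 13.3% of all genes. The 5DAF count was 0 or 1 without any 1 of the 6 libraries, where 0.221% to 17.8% of all genes were called. The 15DAF count was 1 (2.38%, against 6.32% of all genes) without OE 15DAF replicate 1, and 2 (4.76%) without OE 15DAF replicate 2, OE 15DAF replicate 3 or Ko1 15DAF replicate 3, against 5.84%, 6.15% and 9.03%. The change between the stages in Ko1 against that in OE called no member by edgeR, with 0.597% of all genes called, 2 lower at an unadjusted p under 0.05 and 1 called by DESeq2. These comparisons and those with WT share the Ko1 libraries.

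The oryzain alpha chain LOC_Os04g55650 (chromosome 4, 33123071 to 33126988, coordinates as deposited, on a rice build that is not given) was the abundant member that differed most between the genotypes. At 5DAF it had 890, 1205 and 729 CPM in WT, 737, 745 and 834 CPM in Ko1, and 865, 771 and 1393 CPM in OE. At 15DAF it had 1627, 1828 and 1984 CPM in WT, 1872, 1891 and 1734 CPM in OE, and 807, 737 and 786 CPM in Ko1. The 6 WT and OE libraries at 15DAF were therefore all above every other library, while the Ko1 libraries of the 2 stages overlapped.

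The log2 change of this oryzain alpha chain from 5DAF to 15DAF was 0.95 (SE 0.216, edgeR adjusted p 0.00604) in WT, 0.86 (SE 0.216, adjusted p 0.00662) in OE and 0.01 (SE 0.214, adjusted p 0.987) in Ko1. Both rises passed when any 1 library of the comparison was left out. At 15DAF it was lower in Ko1 than in WT by a log2 difference of -1.22 (SE 0.217, edgeR adjusted p 0.00252), and than in OE by -1.24 (SE 0.217, adjusted p 0.00176). The difference from WT ranged from -1.28 to -1.14 when each library was left out and passed each time. The test of the difference itself did not pass. The Ko1 effect changed by -0.94 between the stages (SE 0.303, p 0.00664 before and 0.282 after edgeR's adjustment), and by -0.77 (adjusted p 0.410) without WT 5DAF replicate 3. The stage change in Ko1 differed from that in OE by -0.85 (SE 0.303, p 0.0120 before and 0.253 after adjustment).

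Leaf marker sums at 15DAF were 20653 to 25695 CPM in WT, 18546 to 19540 CPM in OE and 13400 to 34593 CPM in Ko1, so that the Ko1 libraries lay on both sides of WT. Between 5DAF and 15DAF the leaf marker sums in OE went from 45860 to 52214 CPM down to 18546 to 19540 CPM, and their part in the differences between stages and between genotypes was not tested. In bulk leaf RNA, fewer cells of a type and less RNA per cell cannot be told apart.

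**Figure D2:**
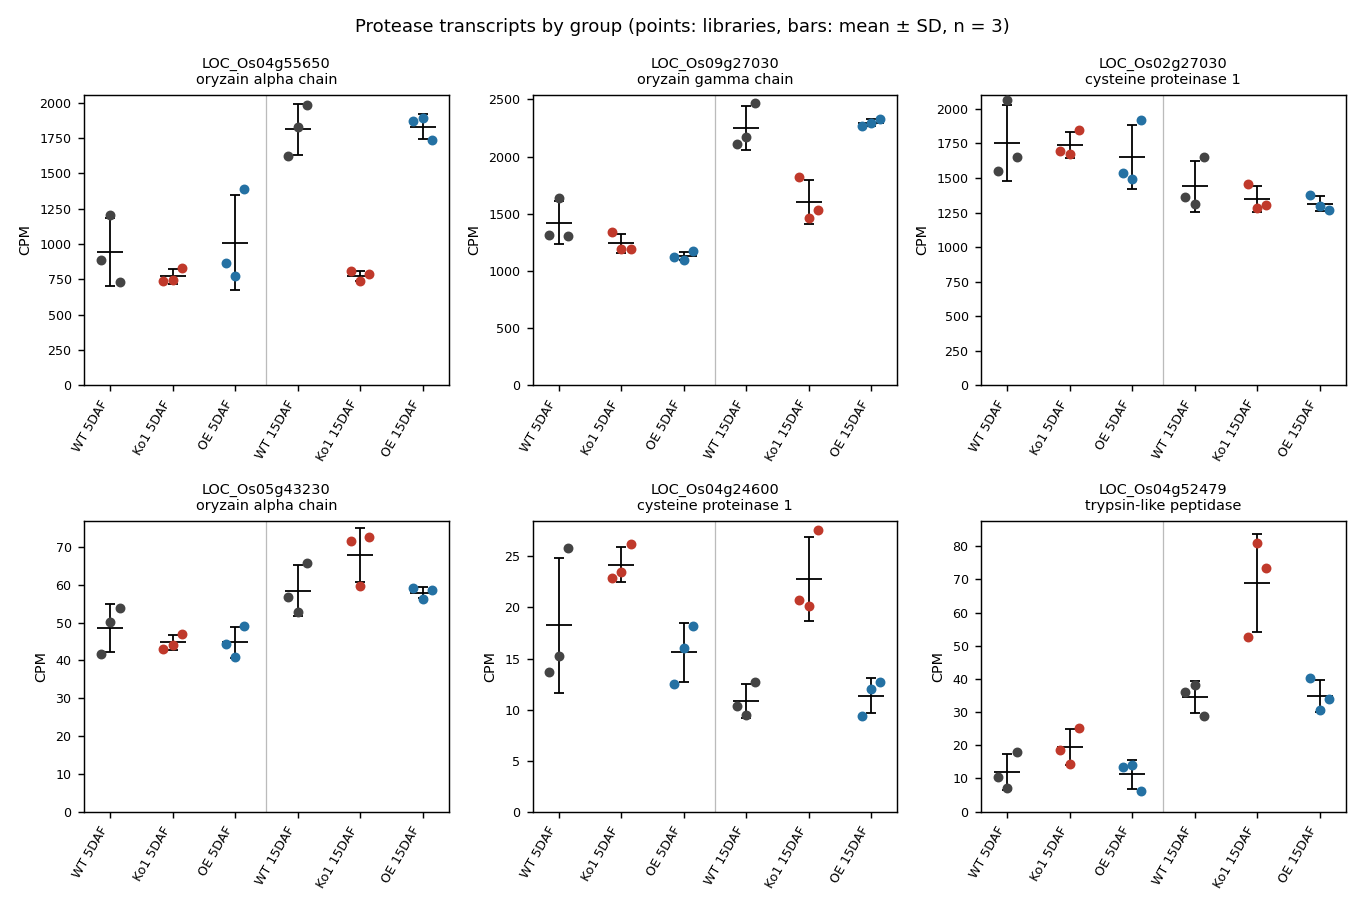
CPM of 6 protease genes in the 6 groups (x axis), with a point for each library and bars for mean ± SD (n = 3). LOC_Os04g55650 shows 1627 to 1984 CPM in WT and OE at 15DAF and 737 to 807 CPM in Ko1, and LOC_Os04g24600 shows the reverse order, 20.1 to 27.5 CPM in Ko1 and 9.41 to 12.7 CPM in WT and OE.

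The oryzain gamma chain LOC_Os09g27030 (chromosome 9, 16439141 to 16443631) resembles the animal protease cathepsin H. In WT its 5DAF libraries had 1315, 1638 and 1307 CPM and its 15DAF libraries 2112, 2168 and 2472 CPM. In OE they had 1118, 1099 and 1173 CPM, then 2270, 2289 and 2332 CPM. In Ko1 they had 1340, 1190 and 1196 CPM, then 1819, 1462 and 1530 CPM. The stages did not overlap in any genotype, and the 3 Ko1 libraries at 15DAF lay between the 5DAF libraries of Ko1 and the 15DAF libraries of WT and OE.

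Its log2 change between the stages was 0.66 in WT (SE 0.155, edgeR adjusted p 0.00707) and 1.02 in OE (SE 0.156, adjusted p 0.000119), and both passed without any 1 library. In Ko1 it was 0.37 (SE 0.155, edgeR adjusted p 0.109), which DESeq2 called (adjusted p 0.00950). At 15DAF the log2 difference between Ko1 and WT was -0.49 (SE 0.155, edgeR adjusted p 0.0511). That lies just outside the threshold and passed in DESeq2 (adjusted p 0.000666). Against OE the difference was -0.52 (SE 0.155, edgeR adjusted p 0.0361), a call that was kept when Ko1 15DAF replicate 1 was left out and lost when any of the other 5 libraries was. The change between stages in Ko1 differed from that in OE by -0.65 (SE 0.219, edgeR adjusted p 0.223, DESeq2 adjusted p 0.00604).

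The other tested oryzains are given by their values, and a difference in pattern between oryzains was not tested. As for all members, no difference between genotypes in their change between the stages passed in edgeR. LOC_Os05g43230, also described as an oryzain alpha chain, had 41.6, 50.1 and 54.0 CPM in WT at 5DAF and 56.7, 52.7 and 65.8 CPM at 15DAF, and in Ko1 43.2, 44.1 and 47.1 CPM against 71.6, 59.7 and 72.7 CPM. It rose between the stages in Ko1 by 0.60 (SE 0.132, edgeR adjusted p 0.00348, passing without any 1 library) and in OE by 0.37 (SE 0.132, adjusted p 0.0465). The OE call was lost without any 1 library except OE 5DAF replicate 3. In WT the log2 change was 0.27 (SE 0.132, adjusted p 0.190). The oryzain beta chain LOC_Os04g57440 had 7.25 to 14.7 CPM over the 18 libraries and was called in none of the 12 comparisons.

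In WT and OE the other abundant papain-type genes moved less between the stages than the oryzains LOC_Os04g55650 and LOC_Os09g27030. The cysteine proteinase 1 LOC_Os02g27030 had 1547, 2063 and 1652 CPM in WT at 5DAF and 1362, 1311 and 1651 CPM at 15DAF. Its log2 changes between the stages were -0.28 in WT, -0.37 in Ko1 and -0.33 in OE (SE 0.166 each), and none passed in edgeR. The papain family protease LOC_Os05g24550 had 741 to 1056 CPM over all libraries and was called in no comparison. The summed level of the 31 papain-type genes was 6108 to 7218 CPM in WT and 6443 to 6591 CPM in OE at 15DAF, and 4326 to 5130 CPM in Ko1. That sum follows its 4 highest genes.

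A second gene described as cysteine proteinase 1, LOC_Os04g24600 (chromosome 4, 14129614 to 14132611), went the other way in Ko1. At 15DAF it had 20.7, 20.1 and 27.5 CPM in Ko1, 10.3, 9.45 and 12.7 CPM in WT, and 9.41, 12.002 and 12.7 CPM in OE. All Ko1 libraries were above all WT and OE libraries. The log2 difference from WT was 1.07 (SE 0.234, edgeR adjusted p 0.00940), lost only without WT 15DAF replicate 2 (adjusted p 0.0511). The difference from OE was 1.004 (SE 0.234, edgeR adjusted p 0.0107), lost only without OE 15DAF replicate 1 (adjusted p 0.0541).

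At 5DAF this gene had 22.9, 23.5 and 26.2 CPM in Ko1, and 13.7, 15.2 and 25.9 CPM in WT, where the highest value belonged to WT replicate 3. With that library the log2 difference was 0.41 (edgeR adjusted p 0.340), and without it 0.74 (adjusted p 0.0343). The fall in WT between the stages, -0.75 (SE 0.234, edgeR adjusted p 0.0350), likewise became -0.44 (adjusted p 0.195) without WT 5DAF replicate 3, and was lost without WT 15DAF replicate 1 or 2.

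The remaining calls among papain-type genes were of low transcripts. The xylem cysteine proteinase 2 LOC_Os01g42790, named for an enzyme of developing xylem vessels, had 3.52, 14.3 and 7.10 CPM in Ko1 at 15DAF and 2.28, 1.36 and 3.04 CPM in WT. The log2 difference was 1.88 (SE 0.528, edgeR adjusted p 0.0312). It was lost without any 1 of the WT 15DAF libraries, and fell to 1.24 (adjusted p 0.131) without Ko1 15DAF replicate 2, the library with the highest value. Its neighbour LOC_Os01g42780, described as EP-B 2, a name given in barley to a protease of germinating grain, had 1.72, 0.690 and 1.39 CPM in WT at 5DAF and 0, 0.272 and 0 CPM at 15DAF. No 15DAF library of any genotype exceeded 0.44 CPM, so this gene passed the count filter only through 5DAF libraries, where it was high. Its fitted log2 change in WT was -3.75 (SE 1.11, edgeR adjusted p 0.0271), and ranged from -7.26 to -3.16 with single libraries left out. That call was lost without WT 5DAF replicate 1 or 3, or WT 15DAF replicate 1 or 3. In Ko1 the fitted change passed only without Ko1 15DAF replicate 2 (edgeR adjusted p 0.0135), which leaves 0 counts at 15DAF.

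LOC_Os03g54130, a cysteine protease 1, had 2 counts in the 3 Ko1 libraries at 15DAF and 31 in those of WT. That is a ratio of 15.1 (95% counting interval 3.84 to 130, edgeR adjusted p 0.0445), and the call was kept only without Ko1 15DAF replicate 2. Against OE at 15DAF it was also lower in Ko1 without that library (edgeR adjusted p 0.0350), which leaves 0 counts in Ko1. At 5DAF it had 0 counts in Ko1 and 14 in WT, which is 4.82-fold lower when 0 is set to 3 counts for the 3 libraries together (edgeR adjusted p 0.131, and 0.0319 without WT 5DAF replicate 3). The interval covers counting error only, and the 4.82-fold figure allows for no error in the 14 WT counts. No Ko1 library exceeded 0.148 CPM, so the gene passed the count filter only through WT and OE libraries. Its call in Ko1 thus rests on a filter passed where the gene was high.

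LOC_Os07g01740, a cysteine protease, had 0.826, 1.42 and 0.689 CPM in Ko1 at 5DAF and 2.33, 1.26 and 6.31 CPM at 15DAF, with overlap. Its log2 change was 1.74 (SE 0.548, edgeR adjusted p 0.0321) in Ko1 and 0.86 (adjusted p 0.327) without Ko1 15DAF replicate 3, and the call was also lost without Ko1 5DAF replicate 1 or 3. In OE it was 1.63 (SE 0.571, adjusted p 0.0430), lost without any 1 library. In WT it was 1.66 (SE 0.568, adjusted p 0.0548), of like size but not passed. LOC_Os12g18210, the twelfth tested gene of this class, was called in no comparison.

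In edgeR none of the 14 tested autophagy genes was called in Ko1 against WT or in OE against WT at either stage, or in Ko1 against OE at 15DAF. Of all genes, 0.0147% were called in Ko1 against WT at 5DAF and 11.0% at 15DAF. The share was 0.0391% and 0.0245% in OE against WT at 5DAF and 15DAF, and 13.3% in Ko1 against OE at 15DAF. At an unadjusted p under 0.05, edgeR had 1 lower in Ko1 than in WT at 5DAF, 1 higher at 15DAF and none in the other 3 of these comparisons, and DESeq2 called 1, in Ko1 against WT at 5DAF. Between the stages 1 of 14 was called higher in WT (7.14%, against 16.7% of all genes) and 1 higher in Ko1 (7.14%, against 20.1%). In OE 2 were higher and 1 lower (21.4%, against 26.7%). In Ko1 against OE at 5DAF 1 was lower in Ko1 (7.14%, against 16.3%). No edgeR test of a difference between genotypes in the change between the stages passed for any of the 14. Of all genes, 0.553% passed for Ko1 against WT, 0.0% for OE against WT and 0.597% for Ko1 against OE.

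Of the ubiquitin-like proteins, LOC_Os11g01010 was described as autophagy-related protein 8D. It had 11.9, 13.5 and 10.8 CPM in WT at 5DAF and 14.3, 16.1 and 17.0 CPM at 15DAF, without overlap, and a log2 change of 0.39 (SE 0.240, edgeR adjusted p 0.302). LOC_Os06g10340, autophagy-related protein 12, had 2.64 to 7.35 CPM over the 18 libraries and was not called. The ATG4 proteases that trim ATG8 had 2 members. LOC_Os04g58560 had 19.4, 15.6 and 18.7 CPM in WT at 5DAF and 29.0, 24.2 and 28.04 CPM at 15DAF, without overlap, a rise of 0.60 (SE 0.171, edgeR adjusted p 0.0231). That call was lost without WT 5DAF replicate 2, WT 15DAF replicate 1 or WT 15DAF replicate 3. In Ko1 and OE its log2 changes were 0.45 (adjusted p 0.0747) and 0.44 (adjusted p 0.0664). LOC_Os03g27350, the other ATG4, had 16.1 to 26.9 CPM and was not called.

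Among the conjugating enzymes, both ATG3 genes were called between the stages in OE. LOC_Os01g10290 went in OE from 37.9, 31.2 and 30.0 CPM to 44.9, 42.9 and 55.2 CPM, a log2 change of 0.53 (SE 0.164, edgeR adjusted p 0.0231) that was lost without OE 5DAF replicate 2, OE 5DAF replicate 3 or OE 15DAF replicate 3. The second ATG3, LOC_Os10g41110, had 5.00, 5.98 and 3.97 CPM against 9.53, 7.19 and 9.23 CPM, a log2 change of 0.79 (SE 0.286, adjusted p 0.0489) that was lost without any 1 of the 6 libraries. In WT that gene's log2 change was 0.82 (SE 0.285, edgeR adjusted p 0.0575), as large as in OE and just outside the threshold. The ATG10 genes LOC_Os04g41990 and LOC_Os12g32210, at 3.98 to 12.6 and 3.29 to 7.39 CPM, and the ATG5 gene LOC_Os02g02570, at 5.36 to 15.8 CPM, were not called. WT 5DAF replicate 2 held the lowest value of the 18 libraries for ATG5, for LOC_Os04g41990 and for LOC_Os12g32210.

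The membrane protein ATG9 had 2 genes, with unlike patterns. LOC_Os03g14380 had 53.6, 57.8 and 50.3 CPM in Ko1 at 5DAF and 69.1, 78.8 and 96.7 CPM at 15DAF, without overlap. Its rise in Ko1 was 0.60 (SE 0.141, edgeR adjusted p 0.00580), and 0.45 (adjusted p 0.0534) without Ko1 15DAF replicate 3. In WT and OE its log2 changes were 0.36 (adjusted p 0.0912) and 0.38 (adjusted p 0.0547). LOC_Os10g07994 had 20.6, 16.7 and 16.8 CPM in Ko1 at 5DAF, below 25.9, 32.3 and 28.2 CPM in WT and 31.2, 29.4 and 26.7 CPM in OE, without overlap. The log2 difference of Ko1 from OE was -0.69 (SE 0.182, edgeR adjusted p 0.0221), a call kept only without Ko1 5DAF replicate 1. From WT it was -0.68 (SE 0.181, edgeR adjusted p 0.1201), with an adjusted p of 0.0343 without WT 5DAF replicate 3 and of 0.0300 in DESeq2.

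The 3 tested genes described only as autophagy-related protein were the most abundant of the class. LOC_Os07g32800 had 118 to 222 CPM over the 18 libraries and LOC_Os04g53240 had 32.9 to 60.2 CPM, and neither was called. LOC_Os08g09240 fell between the stages in OE, from 190, 161 and 230 CPM to 133, 127 and 126 CPM, a log2 change of -0.59 (SE 0.183, edgeR adjusted p 0.0239). That call was lost without OE 5DAF replicate 3, OE 15DAF replicate 2 or OE 15DAF replicate 3. In WT and Ko1 its log2 changes were -0.18 and -0.20 (adjusted p 0.566 and 0.501).

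**Figure D3:**
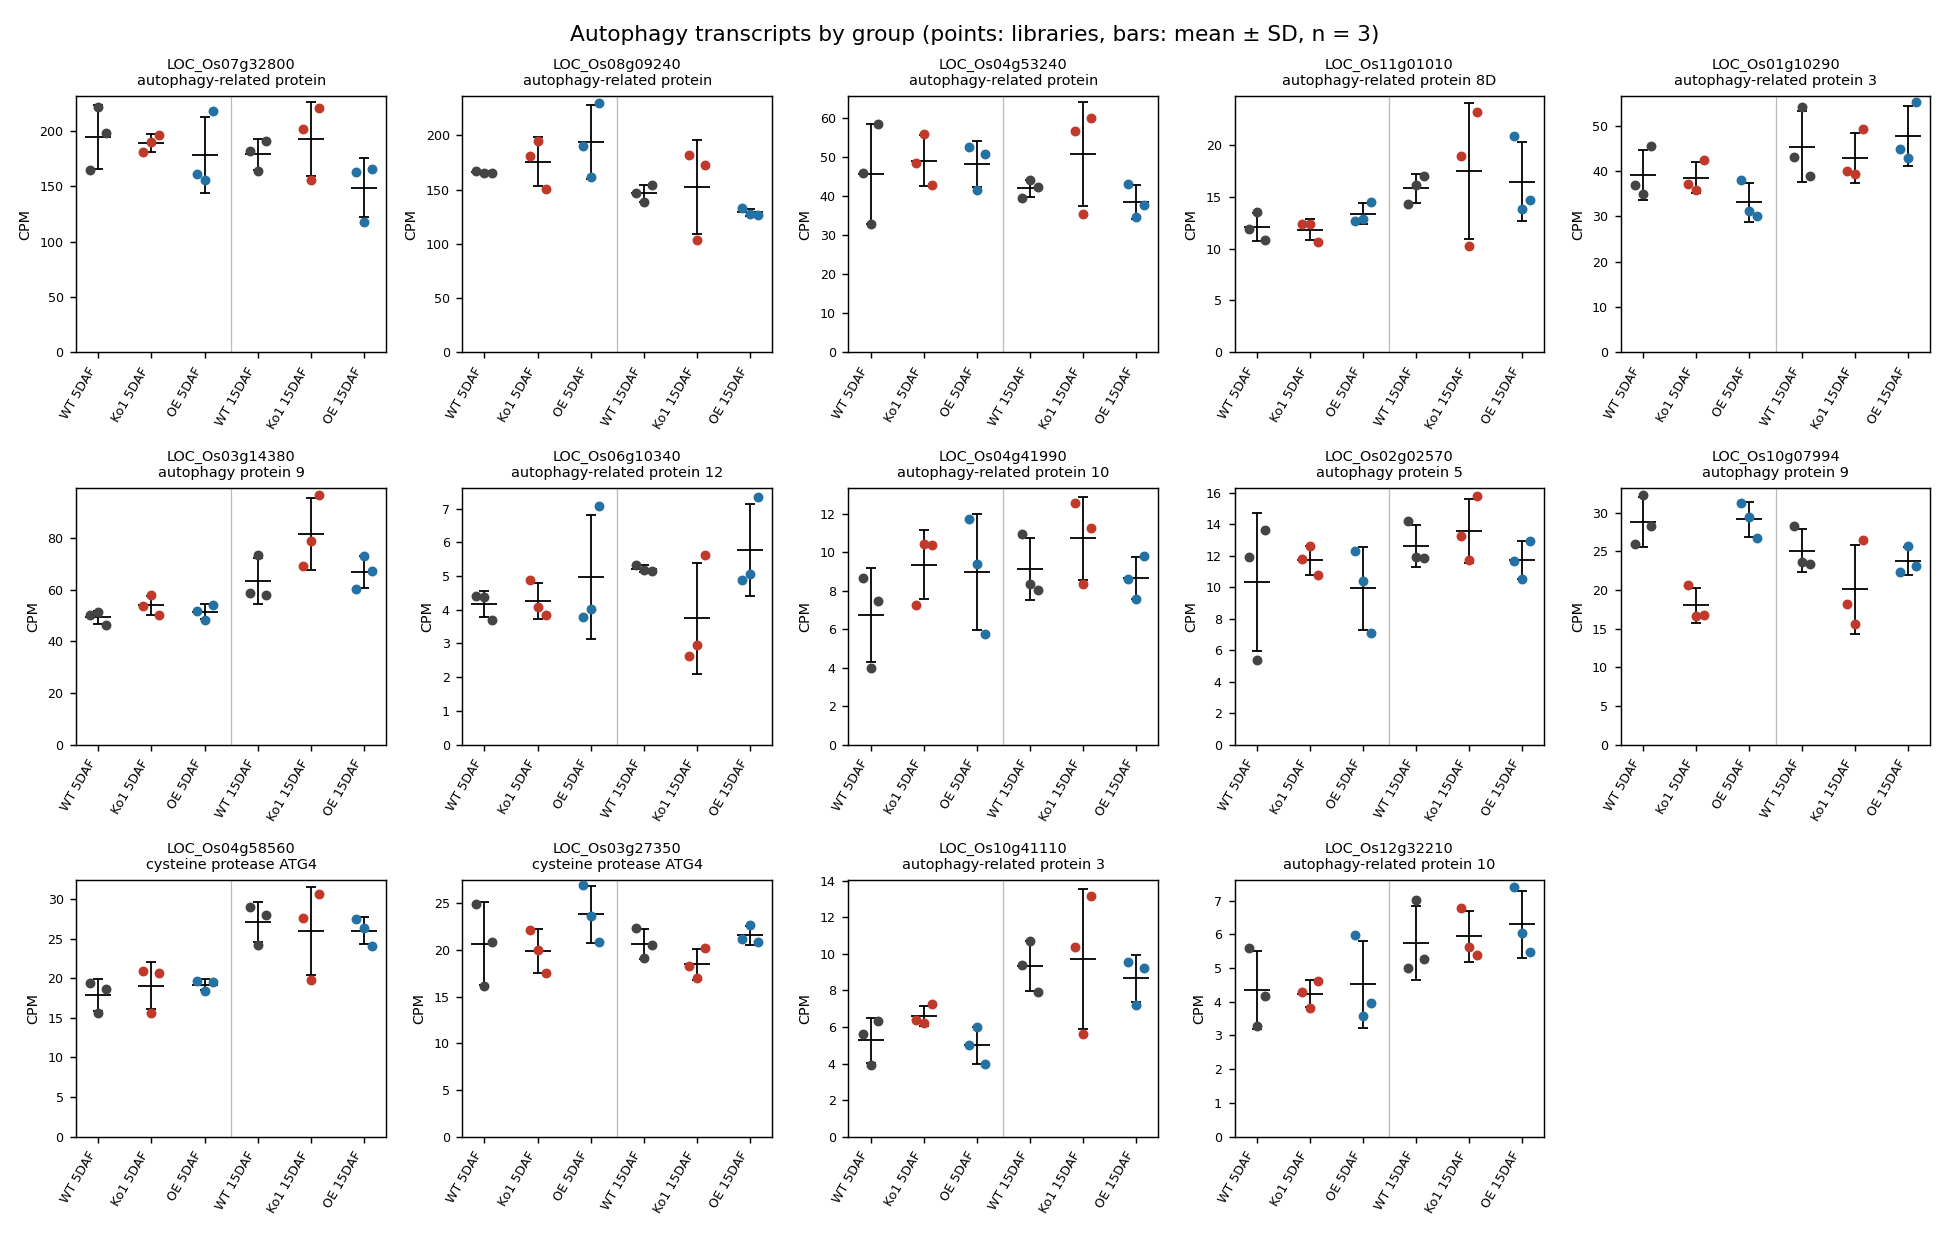
CPM of the 14 tested autophagy genes in the 6 groups (x axis), with a point for each library and bars for mean ± SD (n = 3). Groups overlap in most panels, and in Ko1 at 15DAF 1 library is well below the other 2 in LOC_Os08g09240 (103 CPM against 182 and 173 CPM).

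That low library was Ko1 15DAF replicate 2, the one with the high leaf marker sum. It had 103 CPM of LOC_Os08g09240 against 182 and 173 CPM in its partners, 10.3 against 18.9 and 23.2 CPM of LOC_Os11g01010, and 35.5 against 56.8 and 60.2 CPM of LOC_Os04g53240. The 15 autophagy genes summed to 510 CPM there and to 678 and 751 CPM in replicates 1 and 3. Replicate 2 was not the lowest for LOC_Os03g14380 (78.8 CPM against 69.1 and 96.7) or LOC_Os06g10340 (2.96 CPM against 2.64 and 5.64). Nor was it for LOC_Os12g32210 (5.63 CPM against 6.79 and 5.40). It was the lowest of its group for every other tested autophagy gene. The part of the leaf marker difference in these values was not tested. Without this library, the ATG4 gene LOC_Os04g58560 (log2 change 0.61), the ATG3 gene LOC_Os10g41110 (0.83) and LOC_Os11g01010 (0.83) were also called higher at 15DAF in Ko1.

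Of the 14 OTU-like genes, 2 were called between the stages in WT (14.3%, against 16.7% of all genes), 1 in Ko1 (7.14%, against 20.1%) and 5 in OE (35.7%, against 26.7%). Neither edgeR nor DESeq2 called any in Ko1 or OE against WT, where edgeR had at most 2 at an unadjusted p under 0.05. In edgeR all genes gave 0.0147% at 5DAF and 11.0% at 15DAF for Ko1, and 0.0391% and 0.0245% for OE. LOC_Os04g32970 had 20.005, 18.3 and 25.1 CPM in WT at 5DAF and 33.1, 37.1 and 31.6 CPM at 15DAF, and in OE 20.4, 19.4 and 13.3 CPM against 35.2, 35.1 and 40.6 CPM, without overlap in either. Its rise was 1.06 in OE (SE 0.178, edgeR adjusted p 0.000271, passing without any 1 library), 0.68 in WT (SE 0.176, adjusted p 0.0130) and 0.59 in Ko1 (SE 0.176, adjusted p 0.0237). The WT call was lost without WT 5DAF replicate 1, WT 5DAF replicate 2 or WT 15DAF replicate 2. The Ko1 call was lost without Ko1 5DAF replicate 2 or 3, or Ko1 15DAF replicate 1 or 3.

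LOC_Os01g67490 fell in OE from 25.0, 25.9 and 32.6 CPM to 13.9, 13.2 and 9.49 CPM, a log2 change of -1.19 (SE 0.268, edgeR adjusted p 0.00326) that passed without any 1 library. At 15DAF it had 19.6, 8.66 and 24.1 CPM in Ko1, and without the low library, Ko1 15DAF replicate 2, it was higher in Ko1 than in OE by 0.83 (SE 0.195, edgeR adjusted p 0.0121). Further calls of OTU-like genes between the stages were smaller or less steady. LOC_Os02g07210 rose in WT by 0.62 (edgeR adjusted p 0.0178), lost without WT 5DAF replicate 1 or 3, or WT 15DAF replicate 2 or 3. In OE, LOC_Os02g06890 changed by 0.95 (adjusted p 0.0207), lost without OE 5DAF replicate 2, OE 5DAF replicate 3 or OE 15DAF replicate 2. Also in OE, LOC_Os08g39560 changed by 1.28 (adjusted p 0.0391), lost without any 1 library, and LOC_Os04g52850 by -0.52 (adjusted p 0.0450), kept only without OE 5DAF replicate 2.

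LOC_Os04g52850 was also lower in Ko1 than in OE at 5DAF, with 25.3, 24.7 and 24.3 CPM against 34.0, 30.9 and 44.7 CPM. The log2 difference was -0.56 (SE 0.185, edgeR adjusted p 0.0474), kept only without OE 5DAF replicate 2. Against WT at 5DAF it was -0.44 (adjusted p 0.209), and -0.63 (adjusted p 0.0283) without WT 5DAF replicate 3. The most abundant OTU-like gene, LOC_Os04g33780, had 129 to 170 CPM over the 18 libraries and was called in no comparison.

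The trypsin-like peptidase LOC_Os04g52479 (chromosome 4, 31203525 to 31214741) was the member with the same call in every genotype at the largest size. It had 10.6, 7.28 and 17.9 CPM in WT at 5DAF and 36.2, 38.1 and 29.0 CPM at 15DAF. In Ko1 it had 18.7, 14.3 and 25.2 CPM and then 52.5, 81.0 and 73.3 CPM, and in OE 13.5, 14.2 and 6.31 CPM and then 40.2, 30.5 and 33.8 CPM. All 15DAF libraries were above all 5DAF libraries, and the Ko1 libraries at 15DAF were the highest 3 of the 18.

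This gene's log2 rise between the stages was 1.53 in WT (SE 0.319, edgeR adjusted p 0.00331), 1.83 in Ko1 (SE 0.317, adjusted p 0.000514) and 1.62 in OE (SE 0.321, adjusted p 0.00117), and each passed without any 1 library. At 15DAF, Ko1 was higher than WT by 1.003 (SE 0.308, edgeR adjusted p 0.0454) and higher than OE by 0.98 (SE 0.308, adjusted p 0.0437). Either call was kept only without Ko1 15DAF replicate 1. At 5DAF the log2 difference between Ko1 and WT was 0.70 (edgeR adjusted p 0.240), and 1.11 (adjusted p 0.0333) without WT 5DAF replicate 3. The second trypsin-like peptidase, LOC_Os08g31470, had 110 to 155 CPM and was called in no comparison.

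**Figure D4:**
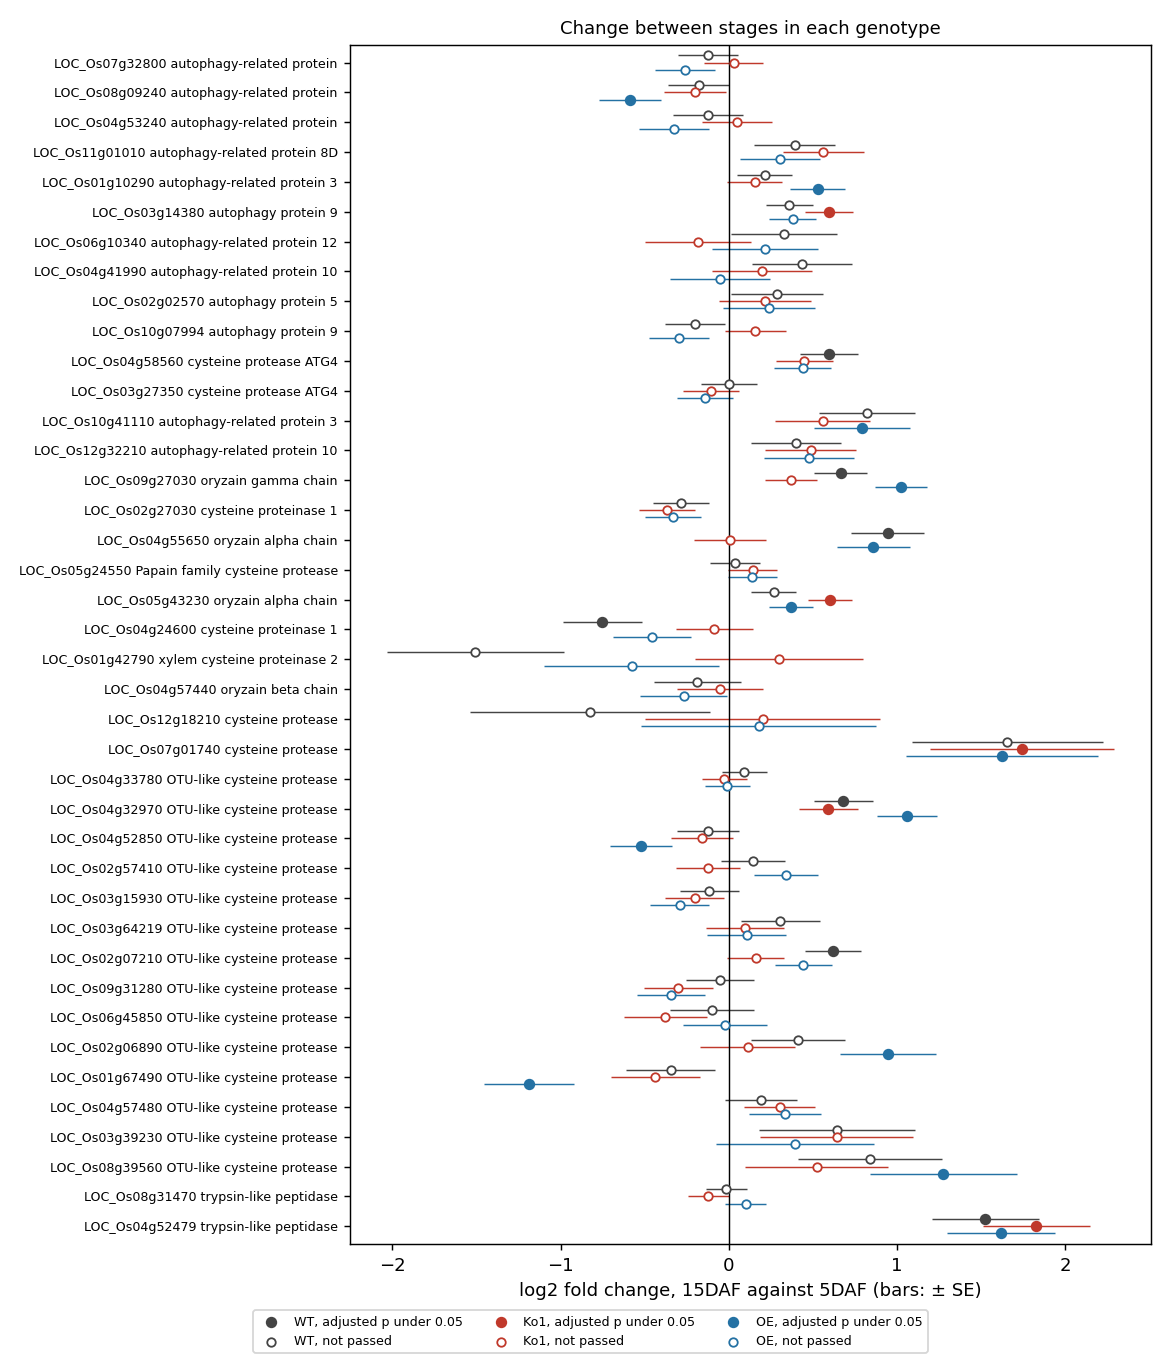
Log2 fold change from 5DAF to 15DAF (x axis, bars ± SE) of 40 tested genes in WT, Ko1 and OE, with filled points for an adjusted p under 0.05. LOC_Os01g42780 and LOC_Os03g54130, near 0 in some groups, are left out. The oryzain alpha chain LOC_Os04g55650 has 0.95 in WT, 0.86 in OE and 0.01 in Ko1, while LOC_Os04g52479 lies between 1.53 and 1.83 in all 3.

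Other genes of protein breakdown, taken by description, were read beside the members. In Ko1 against WT at 15DAF, 14 of 43 tested proteasome subunits were lower and 1 was higher, with a median log2 difference of -0.34, where the median of all genes was 0.01. These were 34.9% of the subunits, against 11.0% of all genes. Of 36 aspartic proteases, 4 were higher and none lower (11.1%, near the share of all genes, median log2 difference 0.67). Of 25 serine carboxypeptidases 4 were higher and none lower (16.0%, median 0.26). Of 4 vacuolar processing enzymes, proteases that mature other vacuolar proteins, LOC_Os01g37910 was lower (-1.14, SE 0.212, edgeR adjusted p 0.00352). The metacaspase-type gene LOC_Os03g27190, 1 of 5 tested, was lower (-1.78, SE 0.551, adjusted p 0.0465). Calls of these related genes, here and below, are given without leaving out single libraries, so their steadiness is not shown. In this comparison the share of all genes fell to 3.88% without WT 15DAF replicate 1 or 2.

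Thiol proteases under other names and protease inhibitors were few. Of 4 tested thiol proteases, the vignain LOC_Os09g39060 was higher in Ko1 at 15DAF (2.14, SE 0.620, edgeR adjusted p 0.0358). Of 6 tested cysteine protease inhibitors, LOC_Os05g41460 was lower (-0.72, SE 0.193, adjusted p 0.0244). None of 9 phosphoinositide and autophagy regulators was called in that comparison by edgeR or DESeq2, with 1 higher at an unadjusted p under 0.05, although the word APG also drew in an anther-specific protein that is no autophagy gene. In edgeR 11.0% of all genes were called there.

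Between the stages in WT, the inhibitor LOC_Os05g41460 rose by 0.92 (SE 0.193, edgeR adjusted p 0.00337) and the inhibitor LOC_Os01g58890 fell by 0.74 (SE 0.172, adjusted p 0.00706). The beclin-1 gene LOC_Os03g44200, part of a lipid kinase complex that starts autophagy, rose by 0.47 in WT (SE 0.146, edgeR adjusted p 0.0363), by 0.47 in Ko1 (adjusted p 0.0323) and by 0.49 in OE (adjusted p 0.0204). The thiol protease LOC_Os09g38920, described as SEN102, a name given to a senescence-linked gene in daylily, rose by 1.72 in Ko1 (SE 0.315, edgeR adjusted p 0.000823) and by 1.47 in OE (SE 0.323, adjusted p 0.00257). In WT its log2 change was 0.78 (SE 0.313, adjusted p 0.103), and the difference of the Ko1 or the OE change from that in WT did not pass (adjusted p 0.584 and 0.894). Also among the thiol proteases, LOC_Os08g44270 fell in WT (-3.06, SE 0.902, edgeR adjusted p 0.0269) and LOC_Os06g38450 in OE (-1.06, SE 0.308, adjusted p 0.0167). No vacuolar processing enzyme was called in WT by edgeR or DESeq2, and none passed an unadjusted p under 0.05. In edgeR 16.7% of all genes were called between the stages in WT. LOC_Os04g45470 changed by 0.37 in WT (SE 0.199, edgeR adjusted p 0.239), and rose by 0.74 in Ko1 (adjusted p 0.0135) and by 0.63 in OE (adjusted p 0.0255). The differences from WT did not pass (adjusted p 0.857 and 0.955).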

How the data were processed

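The deposited table held raw gene counts and FPKM per library, per the file headers. Counts were used for every test and deposited FPKM, which the authors scaled by library and gene length, only for levels between genes. The aligner Bowtie 0.12.2 and the build mm8 stand in the submitters' processing notes; mm8 is a mouse build, whereas the table lists rice loci. Which rice build, annotation and counter were used is not given in the sources used here. Whether strand was used and the treatment of reads that match several loci are likewise not stated, so values of closely similar genes are uncertain. RefSeq names and sequences could not be joined to these identifiers.

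Counts passing filterByExpr were scaled by TMM and fitted with 6 group means over 18 libraries (edgeR 4.0.16, R 4.3.3), two-sided, with Benjamini-Hochberg adjustment over all genes. The standard error is the log2 change over the root of F. CPM uses the TMM library size. The genes tested held over 99.8% of each library's counts. On simulated counts for Ko1 against WT at 15DAF (20437 genes), edgeR recovered 41% of genes changed by log2 1 and 82% of those changed by log2 2, with 6 unchanged genes called. There, 100 genes of each size, all above a mean of 1 CPM, were changed, and every other gene had equal means in the 6 groups. The rates may differ in the data, where 11.0% of all genes were called, and for members below 1 CPM. Alternatives were DESeq2 1.42.0 without independent filtering, RLE scaling, no count filter, a replicate block and leaving out each library.

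The members and lists were chosen with earlier results of these data known. Named were all oryzains and autophagy genes, the 5 highest by FPKM, up to 6 called members per comparison and direction, and the 2 smallest p where none was called. Not every gene so given is printed. Leaf, grain and pollen markers and the related lists were taken by description words. The Ko1 against OE comparisons were added after the values were seen.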

Additional observations from a re-analysis of the deposited data

How the results depend on the processing

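No alternative reversed the direction of a called change. Ko1 against WT at 5DAF called no member, 5 without WT 5DAF replicate 3 and 1 with DESeq2, so leaving out single libraries gave 0 to 5. With single libraries of the comparison left out, Ko1 against WT at 15DAF gave 1 to 4 called members (5 with all). The stage change gave 5 to 7 in WT (8 with all), 2 to 9 in Ko1 (5 with all, 8 with DESeq2) and 6 to 8 in OE (13 with all). Ko1 against OE gave 0 to 1 at 5DAF (2 with all, 1 without a count filter, 4 with DESeq2) and 1 to 5 at 15DAF (4 with all). The stage change in Ko1 against that in OE gave 1 with DESeq2 and none otherwise. Some counts also moved without WT 5DAF replicate 3, a library outside the comparison. They were then 6 for Ko1 against WT at 15DAF, 11 for the stage change in OE and 3 for Ko1 against OE at 5DAF. The cause was not tested, beyond the smaller number of libraries. OE against WT and both changes of effect stayed at 0 in every alternative run.

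Over the 42 tested members and 12 comparisons, leaving out each library of a comparison in turn kept 124 calls, lost 98 and added 13. The other alternatives were followed for 83 single-gene results, which are the called members, the 2 smallest p where none was called, and the oryzains in every comparison. There DESeq2 left 79 on their side of the threshold and added 4 calls, RLE left 82 and added 1, and no count filter left 76 and lost 7. Replicate numbers did not pair the libraries: correlations of same-numbered deviations ran from -0.205 to 0.251 over 15 pairs of groups, and in none were all 3 above 0.1. With the replicate number as a block, the counts were 4 for Ko1 against WT at 15DAF, 9, 5 and 11 for the stage change in WT, Ko1 and OE, and 2 and 4 for Ko1 against OE, and 7 of the 83 single-gene results lost their call. The counts in this section are given without the shares of all genes and are not read as a result about the members. Depth limits the lowest members: those under 10 counts in total were not tested.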
